A study of Mus musculus with 6 samples.

Results

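Interferon-stimulated genes are genes that cells switch on when an interferon binds its receptor, and 34 of them were followed here in C2C12 cells, a mouse myoblast line that fuses into myotubes when serum is lowered. They were taken from a fixed list of symbols, and a gene's value was the mean log2 signal of the probe sets that name that symbol alone. All 34 were measured, 33 of them by 1 probe set and Ifi35 by 2, out of 22180 genes on the arrays. The study measured 6 cultures, each on 1 Affymetrix whole-transcript array of total RNA. In growth medium with 10% fetal bovine serum the cells were left untreated or exposed for 24 h to TNF-α at 50 ng/ml or to BTZ at 10 nM. In 2% differentiation medium they were untreated and harvested on day 5, or given TNF-α at 50 ng/ml or BTZ at 10 nM on day 4 and harvested on day 5. The cytokine TNF-α drives inflammation, and BTZ, which the labels do not spell out, usually stands for the proteasome inhibitor bortezomib. No group had a replicate, so a difference between 2 arrays carries no error and no p-value, and only a fit over all 6 arrays was tested.

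Interferons signal through paired receptors and JAK kinases to STAT proteins. Type I interferons act mainly through a complex that holds Stat2 and Irf9 and binds the interferon-stimulated response element, while interferon gamma acts mainly at the gamma-activated site. Irf1, itself an interferon target, binds elements much like the first of these and is also a target of NF-kB, the main transcription factor of TNF-α signalling. The products of the genes detect viral RNA, block its translation or replication, tag proteins with Isg15, or, as the large GTPases do, act on the membranes around intracellular pathogens.

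The labels call the cells of all 6 cultures myoblasts, and the markers were those of muscle cells. Myogenin (Myog) was at 6.71 in untreated growth medium and 10.90 in untreated differentiation medium, and the embryonic myosin Myh3 at 4.38 and 11.05. All 8 muscle markers reached the floor, which was 5.06, the median of all deposited log2 values. With BTZ in differentiation medium 7 of the 8 were at least 2-fold below the untreated culture (median -2.01), against 8.91% of genes above the floor. Myog was then at 6.93 and Myh3 at 7.28. With TNF-α in that medium 0 of the 8 were 2-fold lower (median -0.46), against 0.879% of genes, and 0 of 8 is near that share. Of 15 measured markers of macrophages, endothelium, lymphocytes and dendritic cells, 5 reached the floor on at least 1 array. Of the macrophage markers, the leukocyte gene Ptprc lay between 3.22 and 3.56 on the 6 arrays and Adgre1 also stayed below the floor, while Cd68 lay between 5.63 and 7.74 and Cd14 between 5.95 and 8.32. Cd14 was higher with TNF-α by 1.02 in growth medium and 0.88 in differentiation medium, and with BTZ by 2.01 and 1.80. The log2 signals of the 5 macrophage markers summed to between 23.5 and 28.7 and were highest with BTZ in growth medium; with TNF-α in differentiation medium the sum was 24.4, against 23.5 untreated. The part of these marker differences in the results below was not tested. The array medians lay between 5.01 and 5.11.

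On every array 8 genes stayed below the median of all values: Dhx58, Oas2, Usp18, Mx1, Mx2, Igtp, Rsad2 and Cmpk2. They include genes widely used as markers of a type I interferon response, such as the GTPases Mx1 and Mx2 and the antiviral enzyme Rsad2 (viperin). Mx1 did not exceed 3.67 on any array, Mx2 4.52 and Rsad2 4.66. Cmpk2, the next protein-coding gene to Rsad2 on the chromosome, reached 4.39, and the GTPase Igtp 4.62. Closest under the floor were Usp18 at 5.04, Oas2 at 5.01 and Dhx58 at 5.00 on their highest arrays, and closest above it were Oasl1 at 5.20, Iigp1 at 5.29 and Ifih1 at 5.30. The other 26 genes reached the floor on at least 1 array. Of these, 13 were at or above it on all 6 arrays, and 9 only with TNF-α in differentiation medium, so a count over the 26 favours that array and the counts over all 34 are given beside it. The floor is no detection call, and a difference that starts below it is compressed by background.

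**Figure D1:**
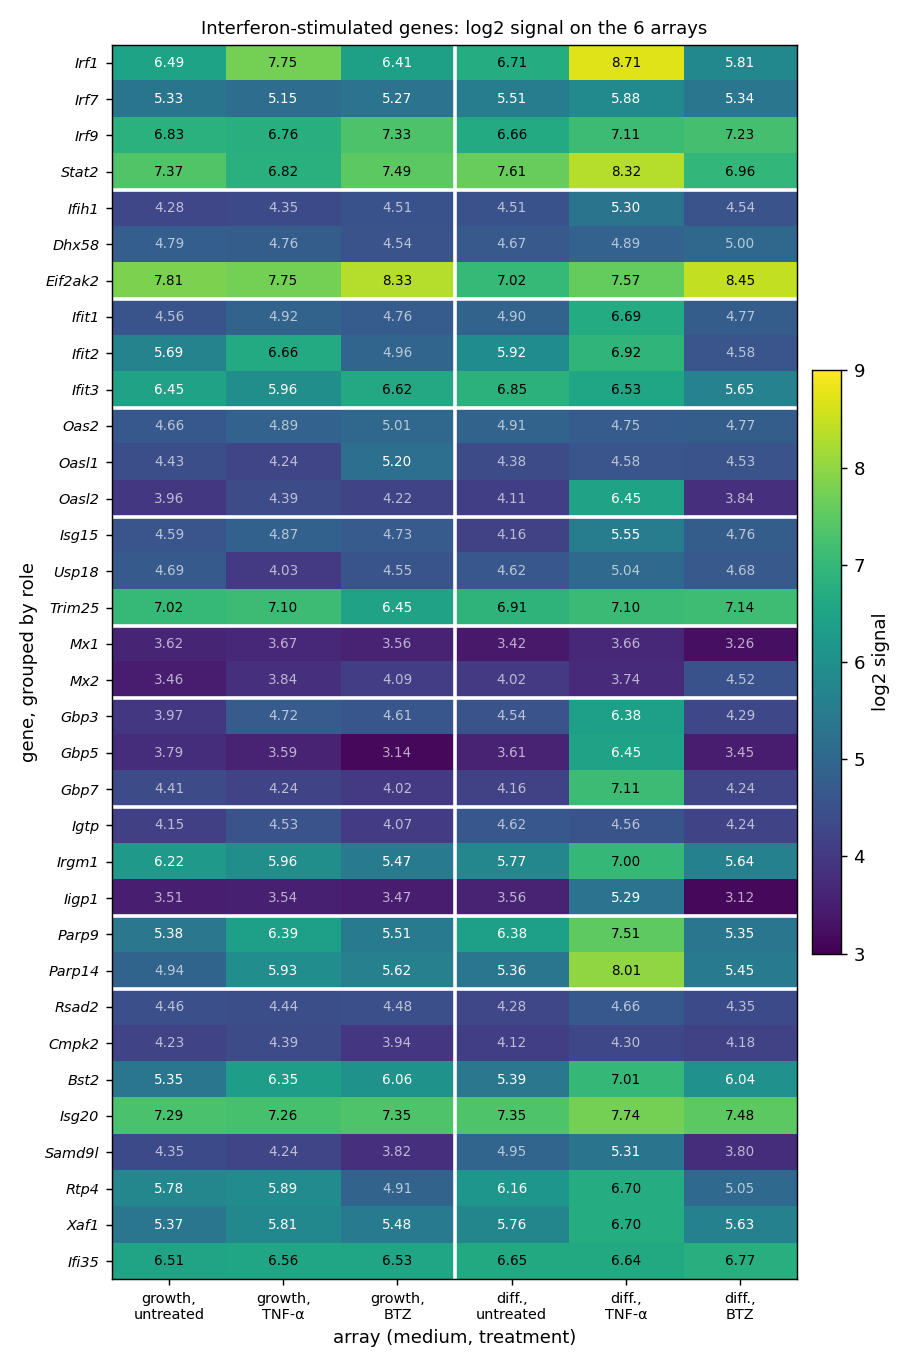
Log2 signal of the 34 interferon-stimulated genes (rows, grouped by role) on the 6 arrays (columns, medium and treatment); each cell holds the value, its colour the same value, and faint figures lie under the floor of 5.06. The column of differentiation medium with TNF-α holds the highest value of the row for 22 of the 34 genes, against 13.7% of all genes measured.

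Of the 5 comparisons of a treatment or medium with its control, TNF-α in differentiation medium had the largest median difference for these genes. There 13 of the 34 genes stood 2-fold or more above the untreated culture of the same medium and 0 stood 2-fold or more below it, where the shares over all 22180 genes were 1.31% and 0.676%. The median log2 difference over the 34 was 0.55, against -0.02 over all genes. Among the 26 genes that reached the floor the same 13 were higher (median 0.98), against 2.01% higher and 0.879% lower of 13652 genes (median 0.01). In bulk RNA a change in every cell and a change in some of the cells cannot be told apart. For 7 of the 13 the untreated array lay below the floor. Among the 13 genes at or above the floor on all 6 arrays, 4 were at least 2-fold higher, against 1.57% of 10909 such genes. The array of TNF-α in differentiation medium was the highest of the 6 for 20 of the 26 genes, against 13.6% of genes, and for 8 of the 13, against 13.5%.

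The guanylate-binding proteins, GTPases that assemble on vacuoles of intracellular pathogens, differed most. Gbp7 was at 4.41 in growth medium untreated, 4.24 with TNF-α and 4.02 with BTZ, and at 4.16, 7.11 and 4.24 in differentiation medium in the same order. Gbp5 was at 3.79, 3.59 and 3.14 in growth medium and at 3.61, 6.45 and 3.45 in differentiation medium. Gbp3 was at 3.97, 4.72 and 4.61, and then at 4.54, 6.38 and 4.29. Each of the 3 genes was above the floor on the array of TNF-α in differentiation medium alone. The log2 differences from the untreated culture there were 2.96 for Gbp7, 2.84 for Gbp5 and 1.84 for Gbp3, and in growth medium -0.17, -0.21 and 0.75. These 3 genes follow one another on the chromosome in the RefSeq table, with no other protein-coding gene between them. They resemble one another in sequence, so the probe sets may share signal, which was not tested.

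The immunity-related GTPases, which also act at pathogen vacuoles, were split. Irgm1 was at 6.22, 5.96 and 5.47 in growth medium (untreated, TNF-α, BTZ) and at 5.77, 7.004 and 5.64 in differentiation medium. Iigp1 was at 3.51, 3.54 and 3.47, and then at 3.56, 5.29 and 3.12. Igtp, of the same family, was at 4.15, 4.53 and 4.07, and then at 4.62, 4.56 and 4.24. Irgm1 and Iigp1 were highest on the array of TNF-α in differentiation medium, and Igtp was not. There Irgm1 was higher by 1.23 and Iigp1 by 1.73, while Igtp, below the floor throughout, differed by -0.06. In growth medium none of the 3 differed by as much as 0.5, with Irgm1 at -0.26, Iigp1 at 0.03 and Igtp at 0.38.

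The promoters of these genes carry the letters of interferon elements, and they are shown here because most of the genes that were higher with TNF-α in differentiation medium hold such a match. The 250 bases before the RefSeq start (GRCm38.p6) were searched on both strands for the interferon-stimulated response element, as GAAA and GAAA with 2 bases of any kind between them. The gamma-activated site was searched as TTC and GAA with 3 bases between them, which reads the same on both strands, and an NF-kB element as GGGA and TTCC with 2 bases between them. The response element and the other motifs were allowed to overlap. Each line gives the stretch from 10 bases before the first match to 10 after the last, cut at the edge of the searched bases, written from 5′ to 3′ on the gene's strand, with the matched bases in capitals; overlapping matches run together.
Irf1 (chr11:53769914-53769942, + strand): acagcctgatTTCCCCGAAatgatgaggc
Gbp3 (chr3:142559989-142560024, + strand): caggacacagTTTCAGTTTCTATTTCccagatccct
Gbp5 (chr3:142496684-142496900, + strand): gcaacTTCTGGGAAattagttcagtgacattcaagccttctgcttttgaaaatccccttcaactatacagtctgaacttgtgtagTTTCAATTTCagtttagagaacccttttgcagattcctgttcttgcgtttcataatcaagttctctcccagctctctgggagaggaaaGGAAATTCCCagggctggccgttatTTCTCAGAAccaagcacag
Gbp7 (chr3:142530220-142530302, + strand): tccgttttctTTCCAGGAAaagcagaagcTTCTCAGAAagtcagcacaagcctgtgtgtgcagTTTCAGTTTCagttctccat
Irgm1 (chr11:48871425-48871460, - strand): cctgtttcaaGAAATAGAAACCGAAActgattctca
Bst2 (chr8:71537577-71537618, - strand): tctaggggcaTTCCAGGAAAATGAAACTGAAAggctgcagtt
Isg15 (chr4:156200865-156200906, - strand): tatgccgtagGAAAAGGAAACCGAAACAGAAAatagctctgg
Ifit1 (chr19:34640775-34640823, + strand): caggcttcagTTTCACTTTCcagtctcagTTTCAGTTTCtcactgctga
Ifit2 (chr19:34550444-34550471, + strand): catGGGAGCTTCCTGGAAgaatggataa
Ifit3 (chr19:34583363-34583426, + strand): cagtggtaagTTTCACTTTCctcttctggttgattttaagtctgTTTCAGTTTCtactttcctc
Ifit3 was added after its values were seen, as the chromosomal neighbour of Ifit2 and near Ifit1.

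The table of promoters held 10 of the 13 genes that were at least 2-fold higher, the exceptions being Iigp1, Parp9 and Parp14. Of the 10, 7 held the interferon-stimulated response element, 5 the gamma-activated site and 9 at least 1 of them; Oasl2 held neither. Of 12 other genes above the floor in the table, 4 held at least 1, and of 3 genes below the floor 2 did, Igtp and Rsad2. Across 27025 genes of the table the share with either was 11.1%. Of these 27025 genes 3.46% held the response element, 8.13% the gamma-activated site and 1.36% the NF-kB element. A gene counted where any of its promoters held a match. Among the listed genes the NF-kB element was found in Gbp5, Ifit2 and Isg20. In Gbp5 all 3 kinds of element were matched. The list was assembled from known interferon targets and no test was made; a match is a string of letters, not a shown binding site.

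The transcription factors of the list differed from one another. Irf1 was at 6.49 untreated, 7.75 with TNF-α and 6.41 with BTZ in growth medium, and at 6.71, 8.71 and 5.81 in differentiation medium. It was the highest with TNF-α in both media, by 1.27 and 2.00 over the untreated culture. Stat2 was at 7.37, 6.82 and 7.49, and then at 7.61, 8.32 and 6.96. Irf9, its DNA-binding partner, was at 6.83, 6.76 and 7.33, and then at 6.66, 7.11 and 7.23. Stat2 thus had both its highest and its lowest array with TNF-α, in differentiation and growth medium, while Irf9 was highest on the BTZ arrays. With TNF-α Stat2 differed by -0.55 in growth medium and 0.71 in differentiation medium, and Irf9 by -0.07 and 0.45. Irf7, which amplifies type I interferon production, stayed between 5.15 and 5.88 and differed with TNF-α by -0.18 and 0.37.

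Among proteins that bind or sense RNA, the IFIT genes, whose products bind foreign RNA ends, went apart. Ifit1 was at 4.56, 4.92 and 4.76 in growth medium (untreated, TNF-α, BTZ) and at 4.90, 6.69 and 4.77 in differentiation medium. Ifit2 was at 5.69, 6.66 and 4.96, and then at 5.92, 6.92 and 4.58. Ifit3 was at 6.45, 5.96 and 6.62, and then at 6.85, 6.53 and 5.65. TNF-α in differentiation medium thus went with a difference of 1.79 for Ifit1, 1.01 for Ifit2 and -0.31 for Ifit3. Ifit1 and Ifit2 were highest on that array, whereas Ifit3 was highest in the untreated culture. Ifit2 and Ifit3 lie side by side in the RefSeq table, and Ifit3, like Ifit1, holds 2 matches to the response element in the stretches shown above. In growth medium the differences were 0.36 for Ifit1, 0.97 for Ifit2 and -0.48 for Ifit3, so Ifit1 was the one of the 3 that differed most between media. Close copies such as Ifit3b could share the Ifit3 signal, which was not tested.

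The OAS family makes or resembles the enzymes that activate RNase L. Oasl2 was at 3.96, 4.39 and 4.22 in growth medium and at 4.11, 6.45 and 3.84 in differentiation medium, a difference of 2.34 with TNF-α there and 0.43 in growth medium. Its neighbour Oasl1 differed by 0.20 in differentiation medium and -0.19 in growth medium, and its highest array was BTZ in growth medium at 5.20. Ifih1, a sensor of long viral RNA, lay between 4.28 and 4.54 on 5 arrays and at 5.30 with TNF-α in differentiation medium, a difference of 0.79. The kinase Eif2ak2 (PKR), which stops translation on double-stranded RNA, differed with TNF-α by 0.55 in differentiation medium and -0.06 in growth medium.

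In the Isg15 system, Isg15, a ubiquitin-like modifier, was at 4.59, 4.87 and 4.73 in growth medium and at 4.16, 5.55 and 4.76 in differentiation medium. Its difference with TNF-α was 0.28 in growth medium and 1.38 in differentiation medium, where only the treated array was above the floor. Usp18, the protease that removes Isg15, stayed under the floor, and the ubiquitin ligase Trim25 differed by 0.08 and 0.19.

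Parp14, an ADP-ribosyltransferase, was at 4.94, 5.93 and 5.62 in growth medium and at 5.36, 8.01 and 5.45 in differentiation medium. Parp9, which lies near it and works with the ligase Dtx3l, was at 5.38, 6.39 and 5.51, and then at 6.38, 7.51 and 5.35. Bst2 (tetherin), which holds budding viruses at the cell surface, was at 5.35, 6.35 and 6.06, and then at 5.39, 7.01 and 6.04. These 3 genes were higher with TNF-α in both media: Parp14 by 0.997 and 2.64, Parp9 by 1.01 and 1.13, and Bst2 by 1.001 and 1.62. For Bst2 the 2 untreated arrays were the lowest of the 6, with both BTZ arrays between them and the TNF-α arrays.

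The remaining genes stayed under 2-fold with TNF-α in both media. With TNF-α in differentiation medium Xaf1, an apoptosis-related antiviral gene, was higher by 0.94, Rtp4 by 0.55, the exonuclease gene Isg20 by 0.39 and Samd9l by 0.37, while Ifi35 differed by -0.02. The 2 probe sets of Ifi35 stood at 7.51 to 8.15 and at 5.19 to 5.50, and differed from untreated by 0.03 and -0.07 in that comparison.

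In growth medium TNF-α went with fewer differences. At least 2-fold higher were 3 of the 26 genes, Irf1, Parp9 and Bst2, and 0 were lower, against 0.982% and 1.02% of genes; these are also 3 of the 34, against 0.667% and 0.663% without a floor. The median was 0.06 over the 26 and over the 34, against 0.03 and 0.01 over all genes. Parp14 and Ifit2 lay just under 2-fold, and 5 genes passed once the array medians were set equal. All 3 genes were also higher in differentiation medium. Of the 13 genes higher there, 7 differed by less than 0.5 in growth medium: Ifit1, Oasl2, Isg15, Gbp5, Gbp7, Irgm1 and Iigp1. The share of all genes under 0.5 was not counted. With a median of 0.03 over genes above the floor, a small difference in growth medium is the usual case. The 13 were picked by their values in differentiation medium.

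**Figure D2:**
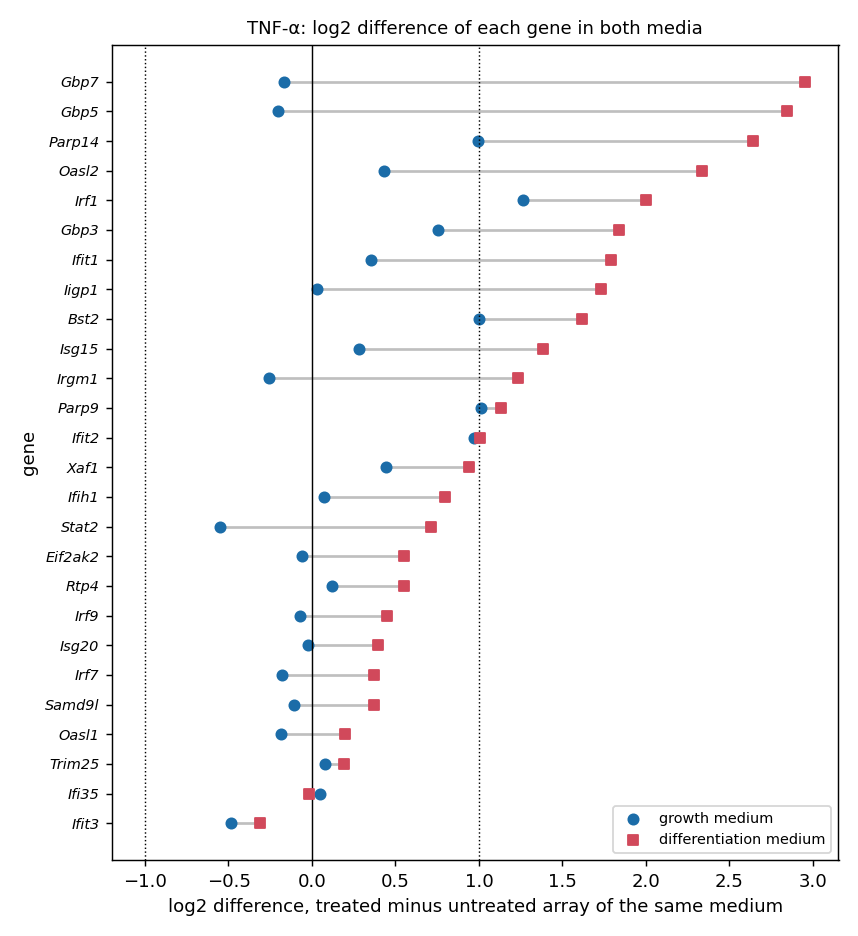
Log2 difference of TNF-α from the untreated array of the same medium (x axis; dotted lines at 2-fold) for the 26 genes that reached the floor (y axis, ordered by differentiation medium); circles are growth medium and squares differentiation medium, 1 array against 1 each. The square lies to the right of the circle for 25 of the 26 genes, from Gbp7 at 2.96 down to Ifit3 at -0.31.

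The 2 TNF-α comparisons share no array and were set against each other as a difference of differences over 4 arrays, without a test. The difference was larger in differentiation medium for 25 of the 26 genes, all but Ifi35, against 46.9% of genes above the floor, and for 30 of the 34, against 46.1% of all genes. It was at least 1 log2 unit for 10 of the 26 and at most -1 for 0, against 1.84% and 0.996% of genes; over the 34 the counts were 11 and 0, against 1.43% and 1.15%. The median was 0.61 over the 26 and 0.51 over the 34, against -0.03 over all genes in both sets. Gbp7 at 3.12 and Gbp5 at 3.05 leaned most to differentiation medium, followed by Oasl2 at 1.91, Iigp1 at 1.70, Parp14 at 1.65, Irgm1 at 1.49 and Ifit1 at 1.43. Irf1 differed by 0.74, Bst2 by 0.62, Parp9 by 0.12 and Ifit2 by 0.04.

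A limma model with terms for medium and treatment used the 6 arrays together and averages the TNF-α effect over the media. No group had a replicate, so the residual of this fit is how far the TNF-α and BTZ differences were unlike between the media. Noise and a true difference between media cannot be told apart in it. The p-values set a mean effect against that residual and do not measure the spread between cultures. The labels do not say how independent the cultures were. It called 0 of the 26 genes for TNF-α at an adjusted p of 0.05, against 0.0806% of genes higher and 0.0146% lower, while 9 of the 26 and 896 of 13652 genes had an unadjusted p under 0.05. Bst2 came closest, with a mean effect of 1.31 ± 0.22 (SE) and an adjusted p of 0.271, higher in both media. Irf1 had 1.63 ± 0.36 (limma adjusted p 0.457) and Ifit2 0.99 ± 0.22 (limma adjusted p 0.457). A gene whose TNF-α difference is unlike between media, as for Gbp7, enlarges the residual of this fit. Without the BTZ arrays the limma fit called 4 of the 26 genes, all higher, against 128 higher and 78 lower of 13652 genes. They were Irf1 (limma adjusted p 0.0107), Parp9 (0.0228), Bst2 (0.0235) and Ifit2 (0.0313). With fewer arrays this fit leaves fewer residual degrees of freedom than the fit over all 6. The 8 settings tried were versions of the fit over 6 arrays, plus the fit without the BTZ arrays. Across them the limma adjusted p ran from 0.0107 to 0.491 for Irf1 and 0.0228 to 0.706 for Parp9. It ran from 0.0235 to 0.303 for Bst2 and 0.0313 to 0.503 for Ifit2. The low end of each range came from the fit without the BTZ arrays.

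The genes upstream of the list were read in the same arrays, from lists of pathway members. Of 19 measured interferon genes 11 lay below the floor on all 6 arrays, among them Ifnb1, between 2.96 and 3.53, and Ifng, between 4.14 and 4.83. None of the other 8 was 2-fold higher or lower with TNF-α in either medium, and their median with TNF-α in differentiation medium was -0.29. Over all genes above the floor at most 2.01% were higher and 1.02% lower in these comparisons, so 0 of 8 is near those shares. Interferon alpha genes are close copies of one another, and the arrays may not tell them apart. Of 9 receptor and kinase genes 5 were at least 2-fold higher with TNF-α in differentiation medium and 0 lower (median 1.18). The shares over all genes above the floor were 2.01% and 0.879%. In growth medium 1 was higher and 0 lower (median 0.56), against 0.982% and 1.02%. The kinase Jak2 was at 9.17 untreated and 11.26 with TNF-α in differentiation medium, and at 9.11 and 9.87 in growth medium. The interferon gamma receptor chains Ifngr1 and Ifngr2 were higher by 1.66 and 1.25 in differentiation medium and by 0.59 and 1.01 in growth medium. The type I receptor chain Ifnar2 was higher by 1.23 and 0.64, and Ifnar1 by 0.52 and 0.19. All 4 of these receptor chains thus stood higher with TNF-α than untreated in both media. Of the other receptor chains listed, Il10rb was higher by 1.18 in differentiation medium and 0.56 in growth medium. Ifnlr1, near the floor, differed by -0.02 and -0.18.

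The 5 listed STAT and IRF genes above the floor, beside those described above, had 0 past 2-fold in any comparison, and their median with TNF-α in differentiation medium was 0.18. The 9 feedback regulators, which dampen JAK signalling, also had 0 past 2-fold in any comparison, with Socs1 at 5.84 untreated and 5.53 with TNF-α in differentiation medium. Over all genes above the floor the shares past 2-fold were largest with BTZ in differentiation medium, at 6.05% higher and 8.91% lower. Of 13 sensors and adaptors above the floor 6 were higher and 0 lower with TNF-α in differentiation medium (median 0.96), against 2.01% and 0.879% of genes. The largest differences were those of Zbp1, a sensor of Z-form nucleic acid, at 2.81, and the Toll-like receptors Tlr2 at 2.47 and Tlr3 at 1.88. Of 44 further interferon-response genes above the floor, of 63 measured, 17 were higher and 0 lower (median 0.78), against the same shares. For 4 of the 17 the untreated array lay below the floor, and no count without the floor was made. Among the 44 the largest differences were those of the chemokine Cxcl9 at 5.52, the guanylate-binding protein Gbp2b at 4.13 and the chemokine Cxcl10 at 3.78. In growth medium 5 of these 44 were higher and 0 lower (median 0.24), against 0.982% and 1.02% of genes. The caspase Casp4 was higher there by 2.33, Cxcl10 by 1.78 and the scramblase Plscr2 by 1.56.

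**Figure D3:**
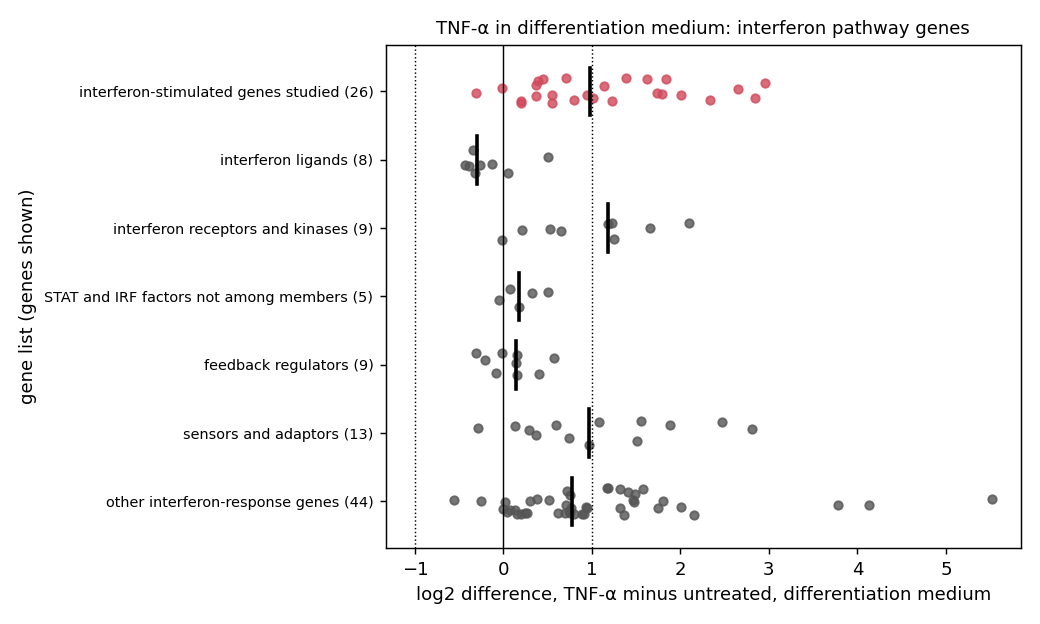
Log2 difference of TNF-α from untreated in differentiation medium (x axis; dotted lines at 2-fold) for the 26 interferon-stimulated genes and 6 pathway lists (y axis, number of genes that reached the floor in brackets); each point is 1 gene, 1 array against 1, and the bar is the median. The medians were 0.98 for the interferon-stimulated genes, 1.18 for receptors and kinases and -0.29 for the interferon genes.

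BTZ took fewer of these genes past 2-fold than TNF-α did in differentiation medium. In growth medium 0 of the 26 were 2-fold higher or lower, against 4.99% and 6.16% of genes (0 of the 34, against 3.22% and 3.84%), with a median of 0.12 against 0.02; the widest differences were Rtp4 at -0.87 and Oasl1 at 0.77. In differentiation medium 1 was higher and 5 lower, against 6.05% and 8.91% of genes, with a median of -0.14 against 0.00. The same 6 genes were past 2-fold among the 34, against 3.82% higher and 5.64% lower without a floor. For so few genes the counts in growth medium and the 1 higher gene are near the shares over all genes. Whether the 5 lower genes exceed their share was not tested. TNF-α and BTZ in a medium share the untreated array, so their values are only set side by side.

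With BTZ in differentiation medium 7 of 8 muscle markers were 2-fold lower, as given above, against 8.91% of genes. Eif2ak2, the kinase that stops translation, was the one higher gene. It was at 7.81 untreated, 7.75 with TNF-α and 8.33 with BTZ in growth medium, and at 7.02, 7.57 and 8.45 in differentiation medium. BTZ thus gave the highest array of each medium, by 0.52 and 1.43 over untreated, and the untreated differentiation culture was the lowest of the 6. Its mean BTZ effect in the limma fit was 0.97 ± 0.25 (SE) with an adjusted p of 0.0568, and the adjusted p ran from 0.0435 to 0.0861 over the settings tried.

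The 5 lower genes were Ifit2 at -1.33, Ifit3 at -1.19, Samd9l at -1.15, Rtp4 at -1.11 and Parp9 at -1.03. Rtp4, an interferon-induced chaperone of receptors, was at 5.78, 5.89 and 4.91 in growth medium (untreated, TNF-α, BTZ) and at 6.16, 6.70 and 5.05 in differentiation medium. Samd9l was at 4.35, 4.24 and 3.82, and then at 4.95, 5.31 and 3.80, with TNF-α in differentiation medium the only array above the floor. For Rtp4, Samd9l and Ifit2 the BTZ array was the lowest of each medium. In growth medium Ifit2 differed by -0.73, Rtp4 by -0.87 and Samd9l by -0.54, while Ifit3 and Parp9 differed by 0.17 and 0.13.

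The fit over both media called 2 of the 26 genes lower with BTZ and 0 higher, against 6.85% and 7.31% of genes. For so few genes both counts are near those shares. Ifit2 fell by 1.03 ± 0.22 (SE, limma adjusted p 0.0361) and Rtp4 fell by 0.99 ± 0.22 (limma adjusted p 0.038), both lower in both media. Over the settings tried the adjusted p ran from 0.0314 to 0.0588 for Ifit2 and from 0.0313 to 0.0533 for Rtp4. Without the TNF-α arrays only Rtp4 passed, against 612 higher and 700 lower of 13652 genes.

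**Figure D4:**
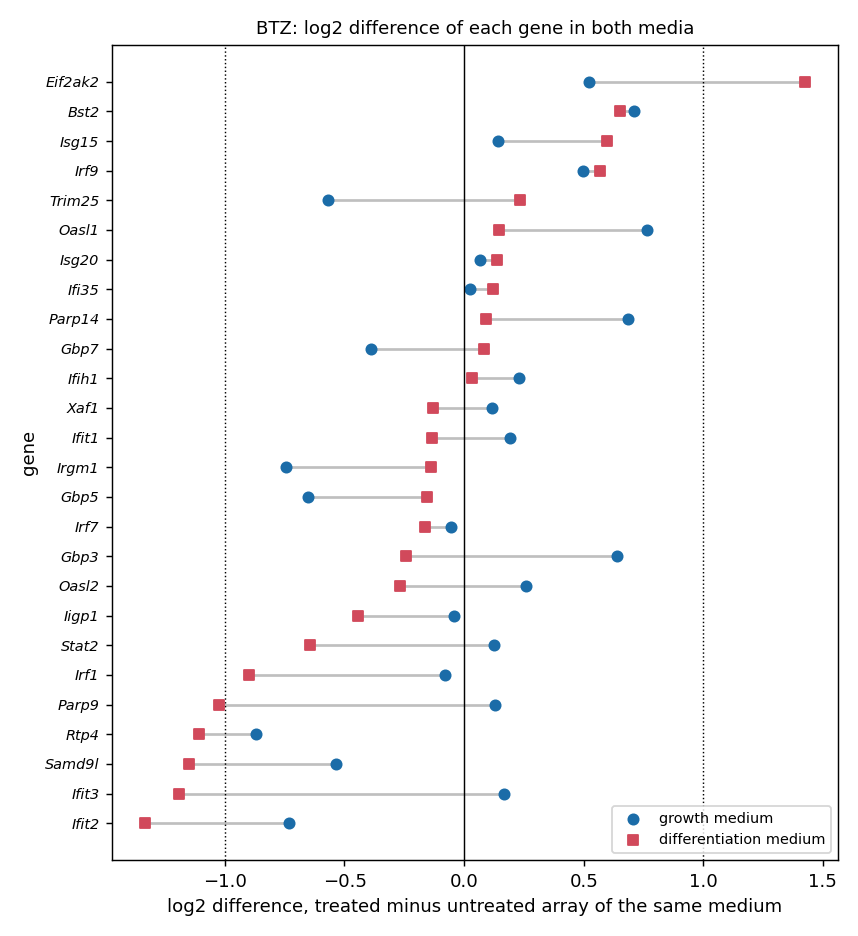
Log2 difference of BTZ from the untreated array of the same medium (x axis; dotted lines at 2-fold) for the 26 genes that reached the floor (y axis, ordered by differentiation medium); circles are growth medium and squares differentiation medium, 1 array against 1 each. Eif2ak2 lies farthest right at 1.43, and Ifit2, Ifit3, Samd9l, Rtp4 and Parp9 lie at or beyond -1.03 in differentiation medium.

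Of the 13 genes that were 2-fold higher with TNF-α in differentiation medium, Ifit2 and Parp9 were the ones past 2-fold with BTZ in that medium, both lower. Over all genes above the floor 6.05% were higher and 8.91% lower there, so for 13 genes this is near the shares. Both comparisons use the same untreated array. Of the GTPases among the 13, Gbp7 differed with BTZ by 0.08, Gbp5 by -0.16, Gbp3 by -0.24, Irgm1 by -0.14 and Iigp1 by -0.45. None of these 5 GTPases reached 2-fold in either direction, which for so few genes is near those shares. Irf1 differed by -0.90 in differentiation medium and -0.08 in growth medium. Bst2 was higher with BTZ in both media, by 0.65 and 0.71 in the same order, and Irf9 by 0.57 and 0.50, without reaching 2-fold. The median difference of differences for BTZ was -0.24 over the 26 genes, with 0 at 1 or more and 2 at -1 or less, Ifit3 at -1.36 and Parp9 at -1.16, against 3.26% and 4.94% of genes; over the 34 these counts were also 0 and 2, against 2.33% and 3.81%. This difference was above 0 for 9 of the 26, against 48.4% of genes, and for 13 of the 34, against 46.2%. With BTZ in differentiation medium 0 of the 9 upstream receptors and kinases were 2-fold higher and 1 was lower, against 6.05% and 8.91% of genes. The lower gene was Ifngr2, from 8.74 to 7.74. Among sensors and adaptors 3 of 13 were higher and 0 lower with BTZ in differentiation medium, against the same shares. The 3 were Ifi204 at 2.41, the kinase Tbk1 at 1.34 and the adaptor Myd88 at 1.31. Of the 44 further interferon-response genes 6 were higher and 5 lower, against the same shares. The largest differences were those of Serping1 at -3.16, Ifi205 at 2.49 and Plscr2 at -1.55.

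Differentiation medium alone took 0 of these genes past 2-fold, which for so few genes is near the shares over all genes. Between the untreated cultures 0 of the 26, and 0 of the 34, were 2-fold higher or lower, against 4.83% and 3.92% of genes above the floor and 3.13% and 2.43% of all genes. The median was 0.16, against 0.01. Parp9 stood just under 2-fold, from 5.38 to 6.38, and passed after quantile normalization; Samd9l differed by 0.59, Gbp3 by 0.57 and Eif2ak2 by -0.79. The number of genes at or above the floor was 15 in untreated growth medium and 16 in untreated differentiation medium, Parp14 being the addition. In the limma fit 0 of the 26 were called for medium, with 2 at an unadjusted p under 0.05, against 1.56% of genes called higher and 2.47% lower. This comparison shares its arrays with the treatment comparisons above.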

How the data were processed

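Total RNA from 6 C2C12 cultures was extracted with TRIzol, amplified and labelled with biotin for Affymetrix whole-transcript arrays, per the labels' protocols. The deposited table holds 41345 probe sets by 6 arrays, read as log2 signal because its values run from 1.66 to 14.1. How the authors summarized, background-corrected and normalized them is not given in the sources used here. The platform annotation named 1 symbol for 23521 probe sets, several for 1814 and none for 16010; only the first kind was used. A gene's value is the mean of its probe sets, and the floor is the median of all values, reached by 13652 genes on their highest array. Differences of 2 arrays were counted at 2-fold. The additive fit used limma 3.58.1 under R 4.3.3, namely lmFit followed by eBayes with an intensity trend. It had 2 residual degrees of freedom and Benjamini-Hochberg adjustment over all genes above the floor. The code was tried on simulated arrays given the same TNF-α effect in both media, which does not cover effects unlike between media. Promoter sequences and gene order are from RefSeq (GRCm38.p6). All 34 genes are named; pathway genes are named by family or as the 3 largest differences of a list. The genes, lists and tests were chosen with earlier results of these data known. Alternatives were scaling, probe set choice, floor, trend and leaving out a treatment's arrays.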

Additional observations from a re-analysis of the deposited data

Results flagged for a closer look

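Stat2 went in opposite directions with TNF-α in the 2 media, by at least 0.5 log2 units each: it differed by -0.55 in growth medium and by 0.71 in differentiation medium. Each value is 1 array against 1, and the difference between media was not tested.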

How the results depend on the processing

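The counts and medians were recomputed with the array medians set equal, after quantile normalization, with the highest probe set of a gene, with no floor and with a floor 1 log2 unit higher. The genes at least 2-fold higher with TNF-α in growth medium became 5 with shifted arrays, where Ifit2 and Parp14 joined. After quantile normalization 1 gene, Parp9, was 2-fold higher in differentiation medium untreated. The median with TNF-α in differentiation medium became 0.55 with no floor, over all 34 genes. The 13 genes higher there were 12 after quantile normalization (without Ifit2) and 11 with the higher floor (without Iigp1 and Isg15, which were then not tested). In the limma fit, leaving out the BTZ arrays gave 4 of the listed genes and 206 of all genes for TNF-α, against 0 and 13 in the fit over 6 arrays; quantile normalization gave 7 of all genes. Leaving out the TNF-α arrays gave 1 listed gene for BTZ. With the higher floor the fit over 6 arrays called Eif2ak2 higher and Ifit2 lower for BTZ, and Rtp4 no longer passed. With that floor the genes at least 2-fold lower with BTZ in differentiation medium became 4, without Samd9l, which was then not tested. The cause of these changes was not tested. No called direction reversed under these alternatives. No paired analysis was possible because each group holds 1 array and the groups share only the number 1. With 1 array a group, the number of arrays limits precision.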
